A study of Rattus norvegicus with 9 samples.

Results

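Mitosis and spindle genes were followed in rat liver as a group of 35 named genes whose products drive entry into mitosis, build the spindle, hold and separate the chromosomes, and divide the cell. Of these, 34 had a row among the 32883 genes of the deposited table, and cyclin B2 (Ccnb2) had none. The members are taken by gene name, and the rule uses no measured value, but they were chosen with earlier results of these data known. The shares of all genes tested that are set beside the members are therefore a description, not a test. The study sequenced mRNA from the livers of 9 rats (male, Sprague-Dawley), in 3 groups of 3 with a library for each rat. The normal control group (rats N1, N3 and N12) received a normal diet and no carcinogen. The DEN model group (M13, M17 and M24) and the PZH administration group (G27, G28 and G42) both received the liver carcinogen diethylnitrosamine (DEN), given as a 0.01% solution into the peritoneum each week in an experiment of 16 weeks. The PZH administration group was also given Pien-Tze-Huang (PZH), a traditional Chinese formula. No group received PZH without DEN, the study gave PZH at a low and a high dose and killed rats at several time points, and neither the dose nor the week is given for a sequenced rat. GEO's treatment label gives PZH for the M rats as well, and the groups used here follow the letters of the rat names and the 3 groups in the study's methods. The labels name the tissue as liver, without saying whether a piece held tumor nodules.

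In a dividing cell, cyclin B1 and its kinase Cdk1 start mitosis, the spindle attaches to the kinetochores of each chromosome, and a checkpoint holds the cell until every chromosome is attached. The anaphase-promoting complex then marks cyclin B and securin for destruction, separase cuts the ring of cohesin that holds sister chromatids together, and the middle of the spindle places the furrow that divides the cell. The genes are transcribed mostly in late S phase, G2 and mitosis, and adult hepatocytes divide rarely, but re-enter the cycle after injury.

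Total counts ran from 14922973 to 27161496 per rat, with the highest total in G27. Levels are given as CPM, in which counts are divided by library sizes that edgeR's TMM factors adjust over the 9 rats, and 3 counts corresponded to 0.125 to 0.252 CPM, a floor that covers counting error only. The factors were 0.731 to 0.799 for N rats, 1.21 to 1.58 for M rats and 0.863 to 0.941 for G rats. Without them, on library totals alone, the median change over the genes tested shifted by 0.86 (log2) for DEN model against normal control, by -0.67 for PZH administration against DEN model and by 0.23 for PZH administration against normal control, so that every change given is relative to the TMM scaling. Each pair of groups was compared with edgeR's quasi-likelihood test, and a gene is said to have risen or fallen at a Benjamini-Hochberg adjusted P under 0.05 over all genes tested. The 3 comparisons share groups, and their values are given side by side, not as independent evidence. Below, a change after PZH means PZH administration against DEN model, which are different rats. In bulk liver, a change in the number of cells of a type and a change in RNA per cell cannot be told apart.

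The 34 genes together made up 28.9, 32.5 and 32.3 CPM in normal control rats N1, N3 and N12, and 345, 325 and 516 CPM in DEN model rats M13, M17 and M24. In PZH administration rats G27, G28 and G42 they made up 89.4, 197 and 230 CPM. The 3 groups did not overlap, with every PZH administration rat above every normal control rat and below every DEN model rat. The group means were 31.2 ± 2.02, 396 ± 105 and 172 ± 73.5 CPM (SD, n = 3 rats each). The same order held for the members' share of raw counts without the factors, 23.0 to 25.8 CPM in normal control, 395 to 815 CPM in DEN model and 77.2 to 217 CPM in PZH administration rats. For each of the 34 genes the mean CPM was lowest in normal control and highest in DEN model rats, and in 25 the values of all 3 groups were separate in that order, as they were for 8.48% of the 14255 genes tested between DEN model and normal control. Within the DEN model group, M24 had the highest CPM for 31 of the 34 genes, whereas M24 was the highest of these rats for 33.6% of all genes tested. Within the PZH administration group, G27 had the lowest CPM for 32 of the 34, against 39.4% of all genes tested.

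**Figure D1:**
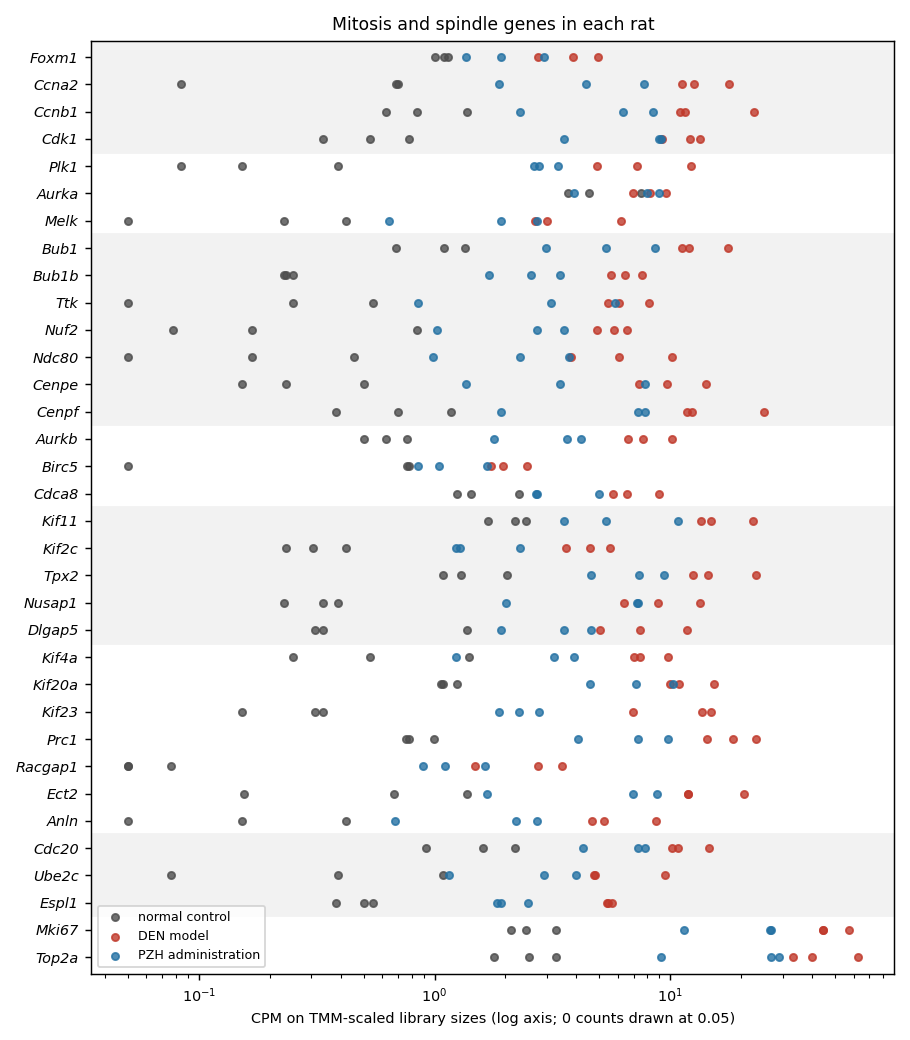
CPM of each of the 34 mitosis and spindle genes (rows, shaded by functional group) in each of the 9 rats, on a log axis, with counts of 0 drawn at 0.05. Normal control rats lie to the left and DEN model rats to the right for nearly every gene, and Aurka is the row in which the 3 groups lie closest together, with means of 5.24, 8.21 and 6.94 CPM.

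Between DEN model and normal control rats, 32 of the 34 genes rose and none fell, where 25.3% of the 14255 genes tested rose and 20.5% fell. The study's thresholds were taken as a log2 fold change beyond 2 in size and an unadjusted P under 0.001. They were applied to the fits made here, and the study does not name the base of its log fold change. At these thresholds 31 of the 34 were higher, against 8.81% of all genes tested. The values of the 2 groups did not overlap, with the DEN model rats higher, for 33 of the 34 genes and for 31.3% of all genes tested. The median log2 fold change over the members was 4.09, beside 0.03 over all genes tested. Each normal control rat had 3 counts or fewer for 9 or 10 of the members. Only 9 members had at least 10 counts in every rat of the comparison, and the others could pass the filter on low counts only through the DEN model rats.

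Between PZH administration and DEN model rats, 12 of the 34 genes fell and none rose, where 10.3% of the 14272 genes tested fell and 8.72% rose. All 34 log2 fold changes were negative, with a median of -1.26 beside 0.01 over all genes tested, and 26 had an unadjusted P under 0.05, where 18.3% of all genes tested were lower at that P. The 2 groups did not overlap, with the PZH administration rats lower, for 26 of the 34 genes and for 22.5% of all genes tested. In the fit made here, only Kif23 was lower at the study's thresholds, which 193 of all genes tested (1.35%) passed in this direction. The study itself reported a larger number of down-regulated genes, from its own comparison, which was not used here. The number of genes called depended on single rats. Among the members it was 1 without M13, 1 without M24, 6 without G27, 3 without G28, 8 without G42 and 11 without M17. Over all genes tested, the count that fell went from 1477 to 152 without M13, 449 without M24 and 1183 without G27. It went to 670 without G28, 597 without G42 and 1725 without M17. The median log2 fold change of the members ran from -0.96 without G27 to -1.49 without G42 in these fits. Of the members, DESeq2 called 22 and scaling by library totals called 33, and both sets held the same 12 genes. With adjusted P under 0.01, 1 gene was called.

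Between PZH administration and normal control rats, 32 of the 34 genes were tested, since Melk and Anln had too few counts. Of these, 20 were higher in the PZH administration rats and none lower, where 4.07% of the 13348 genes tested were higher and 1.15% lower. At the study's thresholds 15 were higher, against 2.16% of all genes tested. The groups did not overlap, with the PZH administration rats higher, for 32 of the 34 genes, the exceptions being Aurka and Kif4a, and for 13.6% of all genes tested. The median log2 fold change over the members was 2.69, beside -0.02 over all genes tested. Only 9 members had at least 10 counts in every rat of this comparison, and 5 of them were called when such genes alone were tested. The others could pass the filter on low counts only through the PZH administration rats, and had little room to be lower there. The count of 20 moved with single rats as well, to 28 without G27, 8 without G28, 10 without G42, 7 without N1, 9 without N12 and 10 without N3. Over all genes tested, the count that was higher went from 543 to 787 without G27, 182 without G28 and 311 without G42. It went to 164 without N1, 288 without N12 and 318 without N3. Cdk1, Kif20a, Mki67, Nusap1, Plk1 and Prc1 were called in all 6 of these fits. Taking the rise from normal control to DEN model as 100%, the mean level in the PZH administration rats stood at a median of 36.4% of it, from 17.7% for Kif23 to 60.6% for Cdk1.

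**Figure D2:**
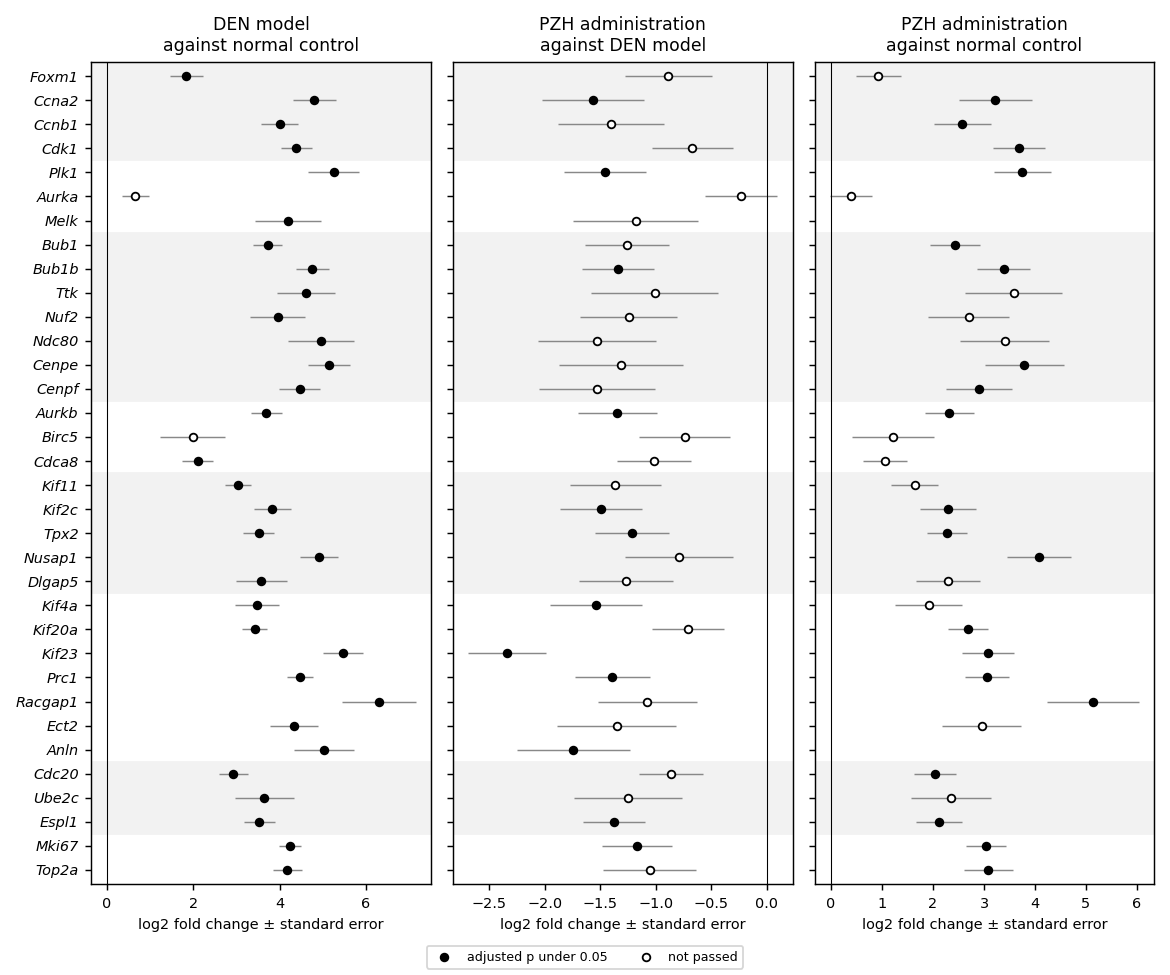
Log2 fold change of each gene in the 3 comparisons (points; bars are standard errors from edgeR's quasi-likelihood test, 3 rats per group), with filled points at an adjusted P under 0.05. All points lie right of 0 against normal control and left of 0 between PZH administration and DEN model, with Kif23 lowest at -2.34 and Aurka nearest 0 at -0.23.

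Promoter sequences were read for the members because their levels moved together. Genes of this phase are known to carry a cell cycle homology region (CHR) near their start, bound by the DREAM complex in resting cells and by MuvB with B-Myb and Foxm1 in dividing cells, and often a CCAAT box bound by NF-Y. The RefSeq promoters on build GRCr8 cover 300 bases, 250 before to 50 after the gene start, and 29 of the 35 members had one. Foxm1, Ccna2, Aurkb, Tpx2, Racgap1 and Ube2c had none, and Kif2c, with 2 entries, was counted where either matched. Cyclin B1, Cdk1 and Plk1 are shown as the cyclin, kinase and polo kinase that start mitosis, each written 5′ to 3′ on the strand of its gene, with matches to CHR and to CCAAT on either strand in capitals.
Ccnb1 (GRCr8, chr2:33655176-33655475, minus strand): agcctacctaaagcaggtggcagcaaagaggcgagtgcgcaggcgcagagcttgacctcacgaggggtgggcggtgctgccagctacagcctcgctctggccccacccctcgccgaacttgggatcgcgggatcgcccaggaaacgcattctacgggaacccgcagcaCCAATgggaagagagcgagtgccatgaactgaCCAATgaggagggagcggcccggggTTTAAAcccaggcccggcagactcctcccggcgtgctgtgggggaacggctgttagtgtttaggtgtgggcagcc
Cdk1 (GRCr8, chr20:19265043-19265342, plus strand): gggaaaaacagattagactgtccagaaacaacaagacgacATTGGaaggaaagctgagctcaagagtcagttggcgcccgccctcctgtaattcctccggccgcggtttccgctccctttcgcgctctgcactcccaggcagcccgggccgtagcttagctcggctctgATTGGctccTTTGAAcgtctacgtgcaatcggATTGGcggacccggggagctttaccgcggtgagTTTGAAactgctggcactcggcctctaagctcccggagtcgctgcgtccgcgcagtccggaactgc
Plk1 (GRCr8, chr1:186147408-186147707, plus strand): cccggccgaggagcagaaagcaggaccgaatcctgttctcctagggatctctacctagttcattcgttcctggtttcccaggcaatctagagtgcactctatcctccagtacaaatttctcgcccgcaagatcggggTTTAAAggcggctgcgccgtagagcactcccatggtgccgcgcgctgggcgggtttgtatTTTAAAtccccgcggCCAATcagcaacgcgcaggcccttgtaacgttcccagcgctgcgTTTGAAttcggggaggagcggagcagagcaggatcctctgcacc

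The CHR was searched as TTTGAA or TTTAAA on both strands, the second of which is its own reverse complement, and the CCAAT box as CCAAT on both strands. None of these motifs contains another. A CHR match was in 28 of the 29 member promoters (96.55%), all but Melk, and in 28.25% of all 33469 promoters of the same length. TTTGAA was in 20 of the 29 (68.97%) against 18.35% of all, and TTTAAA in 12 of the 29 (41.38%) against 13.62%. CCAAT was in 21 of the 29 (72.41%) against 37.49%, and both motifs were in the same promoter for 21 of the 29 (72.41%) against 11.31%. An E2F motif (TTTGGCGC, TTTCCCGC, TTTCGCGC or TTTGCCGC, both strands) was in 1 of the 29, Cdk1, which is 3.448% against 2.139% of all. Counted from the gene start, with upstream negative, the median first base was -35 for a CHR match and -95.5 for a CCAAT match. In 27 of the 29 promoters a CHR match began no more than 100 bases upstream or lay after the start, as in 13.37% of all promoters, a window set after the positions had been seen. In Ccnb1 the CHR lay at -25 with CCAAT at -82 and -50, and Cdk1 had CHR matches at -72 and -16. Plk1 had them at -113, -53 and 6, with CCAAT at -38. A match describes these letters and does not show binding.

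**Figure D3:**
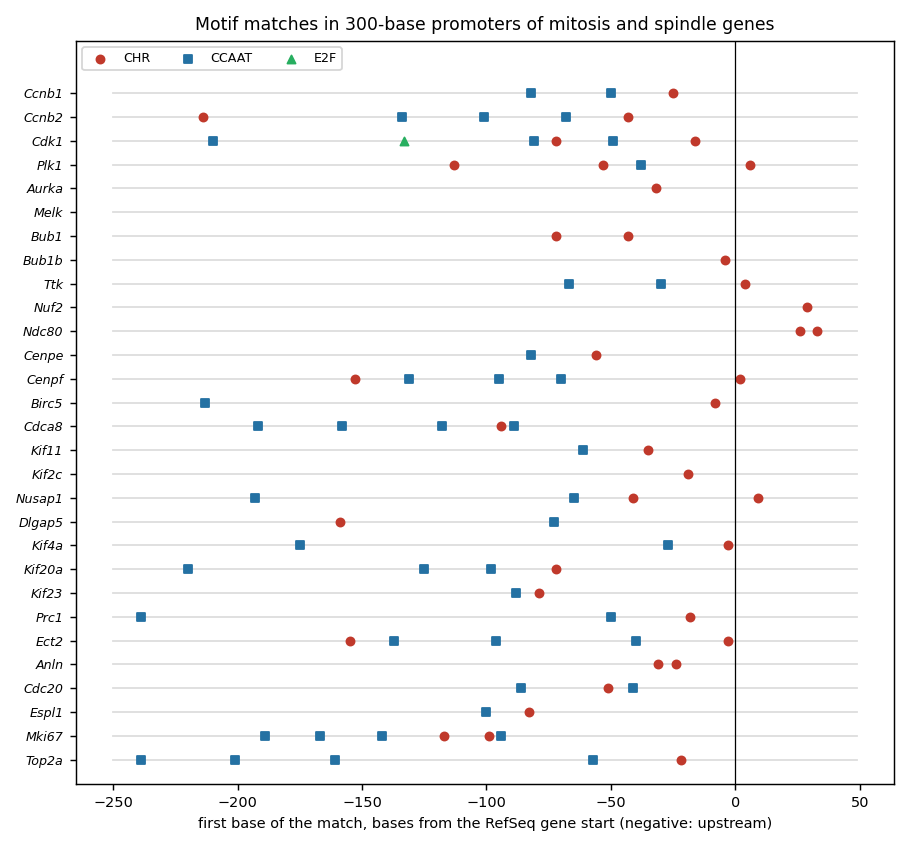
First base of each CHR, CCAAT and E2F match (markers) relative to the RefSeq gene start at 0, in bases, for the 29 members with a promoter (rows). CHR matches, with a median at -35, lie nearer the start than CCAAT matches, with a median at -95.5, and the row of Melk is empty.

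Of the genes that bring the cell into mitosis, all 4 with a row rose in DEN model rats. Cyclin B1 (Ccnb1, chromosome 2) had 0.624, 0.839 and 1.37 CPM in N1, N3 and N12, then 11.6, 11.04 and 22.6 in M13, M17 and M24, and 2.30, 6.33 and 8.47 in G27, G28 and G42. The 3 groups were separate, M24 held about the level of both other DEN model rats together, and G27 lay lowest after PZH. Ccnb1 rose by a log2 fold change of 3.997 ± 0.43 (SE, edgeR adjusted P = 0.000318), and its change between PZH administration and DEN model was -1.40 ± 0.48 (adjusted P = 0.0748). It was higher than in normal control rats, at 2.57 ± 0.56 (adjusted P = 0.0330, called in 1 of the 6 fits that left out a rat).

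Its kinase partner Cdk1 had 0.781, 0.336 and 0.534 CPM in normal control, 9.21, 12.1 and 13.3 CPM in DEN model and 3.54, 8.97 and 9.11 CPM in PZH administration rats. G28 and G42 lay close under M13, the lowest DEN model rat, and only G27 stood well below. Cdk1 rose in DEN model rats by 4.39 ± 0.36 (adjusted P = 0.00012), and its change between PZH administration and DEN model was -0.67 ± 0.36 (adjusted P = 0.226). Against normal control, PZH administration rats were higher by 3.69 ± 0.51 (adjusted P = 0.00658). Cyclin A2 (Ccna2), which serves in S phase and early mitosis, rose by 4.80 ± 0.50 (adjusted P = 0.000274) and then fell by 1.57 ± 0.46 (log2, adjusted P = 0.0479). Its levels were 0.703, 0.0839 and 0.687 CPM in normal control, 12.6, 11.2 and 17.8 in DEN model and 1.88, 4.38 and 7.76 in PZH administration rats, which did not overlap. The fall of Ccna2 was called in 1 of the 6 fits that left out a rat. Foxm1, the transcription factor that switches on many genes of G2 and mitosis, rose least of these, by 1.84 ± 0.38 (adjusted P = 0.00479). Its range was 1.01 to 1.14 CPM in normal control, 2.76 to 4.94 in DEN model and 1.36 to 2.92 in PZH administration rats, so that the last 2 groups overlapped.

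Among the other mitotic kinases, the 2 genes Plk1 and Melk rose and Aurka did not pass the test. Polo-like kinase Plk1, which acts at centrosomes, kinetochores and the cleavage furrow, had 0.390, 0.0839 and 0.153 CPM in normal control, 7.26, 4.90 and 12.2 in DEN model and 2.77, 2.64 and 3.35 in PZH administration rats. All 3 groups were separate, and the PZH administration rats lay closer together than the DEN model rats. Plk1 rose by 5.25 ± 0.59 (adjusted P = 0.000372), fell by 1.46 ± 0.37 after PZH (adjusted P = 0.0305, called in 1 of the 6 fits that left out a rat) and was higher than in normal control by 3.75 ± 0.56 (adjusted P = 0.00851). Aurora A (Aurka), a centrosome kinase, had 3.67, 7.55 and 4.50 CPM in normal control, 6.92, 9.55 and 8.18 in DEN model and 3.92, 7.93 and 8.97 in PZH administration rats. The groups overlapped in all 3 comparisons, with N3 above M13 and G27 below N12. The log2 fold change of Aurka was 0.66 ± 0.32 in DEN model rats (adjusted P = 0.122), and without N3 it was 1.02 and called. Between PZH administration and DEN model it was -0.23 ± 0.33 (adjusted P = 0.649), and without G27 it was 0.06. Melk, a kinase with high levels in dividing cells, ranged from 0 to 0.419 CPM in normal control, from 2.67 to 6.18 in DEN model and from 0.640 to 2.71 among G rats, of which G28 lay above M17. Melk rose by 4.19 ± 0.76 (adjusted P = 0.00291), and its change after PZH was -1.18 ± 0.56 (adjusted P = 0.177).

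The 7 genes of the spindle checkpoint and outer kinetochore all rose in DEN model rats, by log2 fold changes from 3.72 (Bub1) to 5.14 (Cenpe). BubR1 (Bub1b), part of the complex that restrains the anaphase-promoting complex, had 3 counts in each normal control rat, or 0.234, 0.252 and 0.229 CPM. It had 6.45, 5.59 and 7.55 CPM in DEN model and 1.71, 2.57 and 3.42 CPM in PZH administration rats, again with no overlap. Its pooled ratio of DEN model to normal control was 27.7, with a 95% counting interval of 14.5 to 61.0. Bub1b fell after PZH by 1.34 ± 0.32 (log2, edgeR adjusted P = 0.0268) and was the only one of the 7 to pass, in 3 of the 6 fits that left out a rat. The other 6 had changes between PZH administration and DEN model from -1.01 to -1.53, with adjusted P from 0.0525 (the checkpoint kinase Bub1) to 0.246 (Ttk, the kinase Mps1 that starts the checkpoint). Nuf2 and Ndc80, which form the microtubule-binding arm of the kinetochore, changed by -1.24 ± 0.44 and -1.53 ± 0.53 (adjusted P = 0.0808 and 0.0794). The kinetochore motor Cenpe had -1.32 ± 0.56 and Cenpf, a large protein of the outer kinetochore, -1.53 ± 0.52 (adjusted P = 0.133 and 0.0749). Against normal control, Bub1, Bub1b, Cenpe and Cenpf were higher in PZH administration rats, a call that held in 5 of the 6 fits that left out a rat for Bub1b and in 1 for each of the others, whereas Ttk, Nuf2 and Ndc80 had adjusted P from 0.0587 to 0.0945.

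In the chromosomal passenger complex, which corrects faulty attachments and then moves to the middle of the spindle, the kinase Aurora B (Aurkb) and the scaffold borealin (Cdca8) rose in DEN model rats. Aurkb had 0.624, 0.503 and 0.763 CPM in normal control, 7.64, 6.63 and 10.2 in DEN model and 1.79, 4.17 and 3.63 in PZH administration rats. No rats of different groups overlapped, and G27 lay lowest of the PZH administration rats. Aurkb rose by 3.69 ± 0.35 (adjusted P = 2e-04) and fell by 1.35 ± 0.36 after PZH (adjusted P = 0.0361, called in 1 of the 6 fits that left out a rat). Survivin (Birc5), the small subunit that helps bring the complex to chromosomes, had 1.74, 2.47 and 1.95 CPM in DEN model rats. It was at 0.781, 0 and 0.763 CPM in normal control and 1.66, 1.04 and 0.854 CPM in PZH administration rats. Birc5 was the only member that was highest in G27 among the latter. Its log2 fold change in DEN model rats was 1.99 ± 0.75 (adjusted P = 0.0569). Without N3, where no read was counted, Birc5 was called. Cdca8 rose by 2.104 ± 0.35, and its change after PZH was -1.02 ± 0.34 (adjusted P = 0.0677).

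The 5 genes of spindle assembly rose in DEN model rats by 3.03 (Kif11) to 4.90 (Nusap1). After PZH, 2 of them fell. The microtubule depolymerase Kif2c fell by 1.497 ± 0.37 (log2, adjusted P = 0.0292, called in 2 of the 6 fits that left out a rat). Tpx2, which nucleates microtubules and activates Aurora A, fell by 1.21 ± 0.34 (adjusted P = 0.0403, called in 1 of them). Tpx2 had 2.03, 1.09 and 1.297 CPM in normal control, 12.4, 14.4 and 23.2 in DEN model and 4.61, 9.39 and 7.40 in PZH administration rats, with all groups separate. Kif11, the motor that pushes the spindle poles apart, changed by -1.36 ± 0.41 (adjusted P = 0.0504), just outside the threshold, and Dlgap5, which stabilizes spindle fibers, by -1.27 ± 0.42 (adjusted P = 0.0685). Nusap1, a microtubule-bundling protein, had 0.390, 0.336 and 0.229 CPM in normal control, 8.87, 6.38 and 13.4 in DEN model and 2.004, 7.30 and 7.26 in PZH administration rats. G28 and G42 lay above M17. Its change after PZH was -0.79 ± 0.49 (adjusted P = 0.285), and it was higher than in normal control by 4.08 ± 0.63 (adjusted P = 0.00963).

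**Figure D4:**
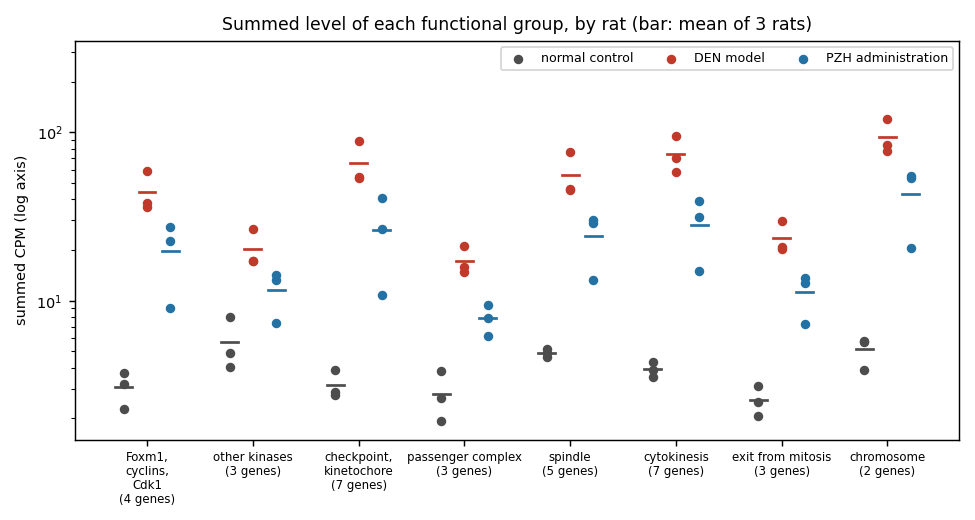
Summed CPM (log axis) of each functional group of genes in each rat (points; bars are means of 3 rats), colored by group. In every functional group except the other kinases, which include Aurka, the 3 sets of points are separate and PZH administration lies between; there G27 lies below N3, at 7.34 against 8.05 CPM.

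The 7 genes of the central spindle and cytokinesis all rose in DEN model rats and held 4 of the 12 genes that fell after PZH. Kif23 (chromosome 8) is the kinesin of centralspindlin, the complex that gathers the middle of the spindle and recruits the machinery of the furrow. It had 0.312, 0.336 and 0.153 CPM in normal control, 14.9, 6.98 and 13.6 in DEN model and 1.88, 2.78 and 2.28 in PZH administration rats. The highest PZH administration rat was well under the lowest DEN model rat, and the DEN model rats were uneven, with M17 low. Kif23 rose by 5.46 ± 0.47 (adjusted P = 0.00014) and fell by 2.34 ± 0.35 after PZH (adjusted P = 0.00981), and this fall was called in all 6 fits that left out a rat, the only member for which this was so. It was higher than in normal control by 3.08 ± 0.51 (adjusted P = 0.0127), a call that held in 3 of the 6 such fits.

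Racgap1, the GTPase-activating protein that is the partner of Kif23 in centralspindlin, had 1 count in the 3 normal control rats together, in N12. It had 2.76, 1.49 and 3.49 CPM in DEN model and 0.896, 1.11 and 1.64 CPM in PZH administration rats, where G42 lay above M17. The pooled ratio of DEN model to normal control was 99.8 with a 95% counting interval of 17.7 to 3964, so its fitted rise of 6.29 ± 0.86 (adjusted P = 0.000805), the highest among the members, is poorly bounded. Its change after PZH was -1.08 ± 0.45 (adjusted P = 0.127), beside the fall of 2.34 in Kif23, and the difference between these 2 genes was not tested.

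The microtubule bundler Prc1, which places Kif4a at the middle of the spindle, rose by 4.47 ± 0.30 (adjusted P = 5.42e-05) and fell by 1.39 ± 0.34 (adjusted P = 0.0269). Its levels were 0.781, 0.755 and 0.992 CPM in normal control, 18.5, 14.4 and 23.1 in DEN model and 4.05, 7.30 and 9.82 in PZH administration rats, without overlap. The kinesin Kif4a fell by 1.54 ± 0.41 (adjusted P = 0.0368) and Anln, the scaffold anillin of the contractile ring, by 1.74 ± 0.51 (adjusted P = 0.0471). Prc1 was called in 3, Kif4a in 2 and Anln in 0 of the 6 fits that left out a rat. With all 3 groups in one fit, Anln, Ccna2 and Kif4a were no longer called, and with the deepest library thinned Anln was not. Ect2, the exchange factor that activates RhoA at the furrow, changed by -1.35 ± 0.53 (adjusted P = 0.110) and the kinesin Kif20a, which brings the passenger complex to the middle of the spindle, by -0.71 ± 0.32 (adjusted P = 0.159).

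Of the genes for exit from mitosis, Cdc20 and Ube2c, an activator and the ubiquitin-conjugating enzyme of the anaphase-promoting complex, rose by 2.93 ± 0.34 and 3.64 ± 0.68 in DEN model rats. Their changes after PZH were -0.86 ± 0.29 and -1.25 ± 0.49 (adjusted P = 0.0694 and 0.109). Separase (Espl1), the protease that cuts cohesin, had 5.43, 5.39 and 5.69 CPM in DEN model rats. It had 0.546, 0.503 and 0.381 CPM in normal control and 1.83, 2.50 and 1.92 CPM in PZH administration rats, so that the groups stood far apart. Espl1 rose by 3.53 ± 0.35 (adjusted P = 0.000243) and fell by 1.38 ± 0.28 after PZH (adjusted P = 0.0170), the lowest adjusted P after Kif23, and was called in 3 of the 6 fits that left out a rat.

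Ki-67 (Mki67), which coats mitotic chromosomes and is the usual tissue marker of dividing cells, had 2.11, 2.43 and 3.28 CPM in normal control, 44.6, 44.5 and 57.4 in DEN model and 11.4, 26.6 and 26.4 in PZH administration rats. The groups were far apart, and G28 and G42 were more than 2 times as high as G27. Mki67 rose by 4.24 ± 0.24 (adjusted P = 2.56e-05, the lowest among the members), fell by 1.17 ± 0.31 after PZH (adjusted P = 0.0369, called in 2 of the 6 fits that left out a rat), and was higher than in normal control by 3.04 ± 0.39 (adjusted P = 0.00502). Top2a, the topoisomerase that untangles sister chromatids, had 1.80, 3.27 and 2.52 CPM in normal control, 40.0, 33.1 and 62.5 in DEN model and 9.13, 26.6 and 29.0 in PZH administration rats. It rose by 4.18 ± 0.34 (adjusted P = 0.000115), and its change after PZH was -1.06 ± 0.42 (adjusted P = 0.114), although the groups did not overlap.

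Levels can be compared between genes only per transcript length, for which the authors' FPKM values were read. The mean FPKM of the members ran from 0.0069 (Racgap1) to 1.70 (Aurka) in normal control rats, with a median of 0.120. In DEN model rats it ran from 1.11 (Foxm1) to 13.8 (Ccnb1), with a median of 3.98. The corresponding range for the G rats was 0.279 (Espl1) to 3.29 (Ccnb1), with a median of 1.02. Aurka was thus the highest member per length in normal control rats and rank 14 in DEN model rats.

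The share of each gene in the summed counts of the 34 does not depend on the scaling of the libraries. Between DEN model and PZH administration rats these shares did not overlap for 7 of the 34 genes, a count with no counterpart over all genes and given only as a description. The share was higher in PZH administration rats for Cdk1 (2.99% and 4.16%, means of DEN model and PZH administration), Aurka (2.17% and 4.11%), Kif20a (3.07% and 4.40%) and Cdc20 (3.03% and 3.96%). It was lower for Ccna2 (3.51% and 2.57%), Kif4a (2.07% and 1.57%) and Kif23 (3.04% and 1.501%). Mki67, the member with the largest share in DEN model rats, held 12.6% in both groups. In normal control rats Aurka alone held 12.7% to 23.3% of the members' counts, against 1.58% to 2.94% in DEN model rats.

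Another 117 named mitosis genes in 4 lists, also chosen with earlier results of these data known, gave the wider pathway, and 115 had a row. Spag5 had 2 rows, counted separately among those tested, with log2 fold changes of 3.35 (called) and 0.23 (not called) in DEN model rats. Between DEN model and normal control rats, 69 of 114 tested were higher and 1 lower, beside 25.3% and 20.5% of all genes tested. The median log2 fold change was 1.91. Genes near 0 in normal control rats, such as Cenpw and Ska1 with means of 0.051 and 0.077 CPM, passed the filter only through the DEN model rats. Such genes had little room to be lower there, as with the members. At the study's thresholds 45 were higher, beside 8.81% of all genes tested. By list, 11 of 27 other kinases and regulators, 26 of 36 other checkpoint and kinetochore genes, 22 of 32 other spindle, centrosome and cytokinesis genes and 10 of 19 condensin and cohesin genes were higher. The kinetochore protein Cenpt was listed at 0 in all normal control rats and had 32, 20 and 44 counts in M13, M17 and M24. The centromere protein Cenpw was higher by 5.42 ± 0.83 from 2 counts in the normal control rats, and the condensin subunit Ncaph by 4.86 ± 0.49 (adjusted P = 0.00138 and 0.000251). Bod1, which helps orient chromosomes, fell by 0.65 ± 0.22 (adjusted P = 0.0397), and the checkpoint protein Mad1l1 and the ubiquitin-conjugating enzyme Ube2s had -0.76 and -0.59 without passing.

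Between PZH administration and DEN model rats, 16 of the 114 wider pathway genes fell and none rose, with a median of -0.68. The part that fell was not far above the 10.3% of all genes tested that fell, and 8.72% of all genes tested rose. By list, 4 of 27 other kinases and regulators and 4 of 36 other checkpoint and kinetochore genes fell. So did 7 of 32 other spindle, centrosome and cytokinesis genes and 1 of 19 condensin and cohesin genes. Mybl2, which encodes B-Myb, fell by 2.95 ± 0.50 (adjusted P = 0.0122), and Cdc25b, a phosphatase that activates Cdk1, by 2.25 ± 0.41 (adjusted P = 0.0144). A link between the level of Mybl2 and those of the members was not tested. These were the 2 past the study's thresholds. The counts of Mybl2 were 6, 8 and 0 in normal control, 85, 68 and 183 in DEN model and 15, 12 and 5 in PZH administration rats. The kinesin Kif18a fell by 1.76 ± 0.49 (adjusted P = 0.0403). No value from the fits that left out a rat is given for Mybl2, Cdc25b or Kif18a, and calls in this comparison depended on single rats. The highest changes were 0.78 for Lin52, 0.55 for Stag1 and 0.48 for Cks1b, none of which passed. Against normal control, 96 were tested, since the others had too few counts. Of these, 15 were higher in PZH administration rats and none lower, beside 4.07% and 1.15% of all genes tested. Those with few counts in normal control rats had little room to be lower. The genes called were led by Ckap2 (3.304 ± 0.54, adjusted P = 0.0122) and Ncaph (3.28 ± 0.62, adjusted P = 0.0195), whereas Sgo2 had 3.296 ± 0.95 (adjusted P = 0.0865). The lowest values there were -0.94 for Gtse1, -0.76 for Cdc25b and -0.75 for Bod1, none passing.

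**Figure D5:**
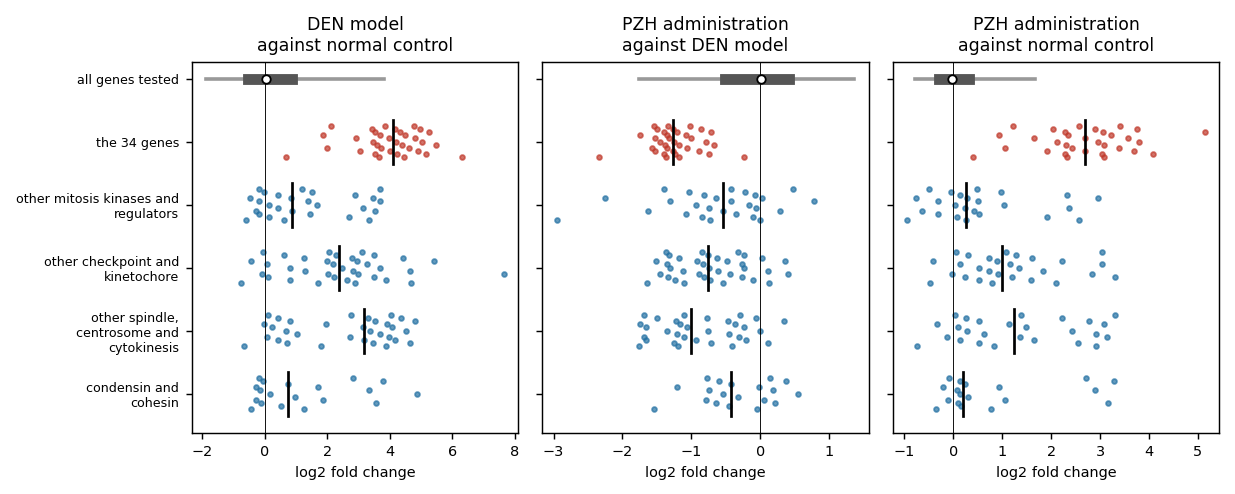
Log2 fold changes in the 3 comparisons for all genes tested (white point, median; thick bar, middle 50%; thin bar, 5% to 95%), the 34 genes and 4 lists of other mitosis genes (points are genes; black lines are medians). The 34 genes have medians of 4.09, -1.26 and 2.69, and the condensin and cohesin list and the other kinases lie nearest the median of all genes.

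The summed markers of cholangiocytes and of stellate cells were highest in DEN model rats, as the mitosis genes were, whereas the hepatocyte sum was lowest there. The summed CPM of 9 hepatocyte markers was 168975 to 186618 in normal control, 37662 to 87133 in DEN model and 145031 to 181655 in PZH administration rats, so that the labelled tissue was present in every rat. Of these markers, 3 fell in DEN model rats and 2 rose after PZH. Over all genes tested, 25.3% rose and 20.5% fell in DEN model rats, and 8.72% rose and 10.3% fell after PZH. The sum of 6 cholangiocyte markers was 13.04 to 20.8, 209 to 748 and 76.1 to 90.1 CPM in the same order, and all 6 rose in DEN model rats and fell after PZH. The sum of 8 stellate cell and myofibroblast markers was 195 to 323, 1049 to 3201 and 599 to 725 CPM, with 7 higher in DEN model rats and 5 lower after PZH. M24, which had the highest summed mitosis level, also had the lowest hepatocyte sum and the highest cholangiocyte and stellate sums of the 9 rats, whereas its endothelial and macrophage sums were the lowest of its group. G27, with the lowest mitosis level of its group, had the highest hepatocyte, endothelial and macrophage sums and the lowest cholangiocyte sum of its group, and its stellate sum was level with that of G28 (both 725 CPM).

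The blood cell lists were low throughout and highest in DEN model rats. Lymphocyte markers summed to 5.79 to 8.01 CPM in normal control, 10.6 to 45.0 in DEN model and 3.70 to 10.4 in PZH administration rats, with 3 of 6 tested higher in DEN model rats and none of 5 called after PZH. Erythroid markers summed to 6.24 to 13.9, 15.8 to 71.3 and 5.93 to 6.12 CPM, with 4 of 5 tested higher in DEN model rats and 4 of 5 lower after PZH. Granulocyte markers summed to 1.26 to 1.80, 11.4 to 25.1 and 2.64 to 2.90 CPM, with both genes tested higher in DEN model rats and lower after PZH. Among these, Mpo, Elane, Ltf and Camp were at 0 in normal control rats, Ltf in DEN model rats and Elane in PZH administration rats. Macrophage and endothelial sums overlapped between all groups, with 3 of 7 macrophage markers lower in DEN model rats and 3 of 7 lower after PZH, and with 2 of 5 endothelial markers higher and 2 lower in DEN model rats. The shares of all genes tested that belong beside these counts are those given with the hepatocyte markers, and the short lists were not tested against them. The part of these cell types in the levels of the mitosis genes was not tested.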

How the data were processed

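Reads per gene were counted by the authors in liver mRNA of 9 rats, and the deposited counts are whole numbers without normalization. The deposited FPKM, which the authors scaled for length and depth, were used only for order between genes. The submitters' processing notes name fastp, HISAT2 2.1.0, StringTie 1.3.3b and edgeR 3.30.3, and the genome build is not given in the sources used here. The table's group means, log2 fold changes, P and Q columns are the authors' own comparisons and were not used.

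Genes were kept with filterByExpr, scaled with TMM and tested with edgeR 4.0.16 (glmQLFit, glmQLFTest; R 4.3.3) on the 6 rats of each comparison, with Benjamini-Hochberg adjustment. SE is the absolute log2 fold change divided by the square root of F. The scripts were tested on simulated data. The members and lists were chosen with earlier results of these data known. All members were named, and from the 4 other lists the 3 highest and 3 lowest per comparison and those past the study's thresholds after PZH. Counting intervals are exact conditional binomial intervals at 95% and cover counting error only. With 3 against 3, exact permutation reaches no lower than P = 0.1, and it was not used. The promoter of Ccnb2 was searched but not printed, since that gene has no row. The alternatives were DESeq2 1.42.0, library totals, other filters and call rules, all groups in one fit, the deepest library thinned and each rat left out.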

Additional observations from a re-analysis of the deposited data

How the results depend on the processing

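All directions of the members were kept under every alternative run, except that Aurka between PZH administration and DEN model ran from -0.44 to 0.059 leaving out each rat, the latter without G27. The number of members called between DEN model and normal control was 32, and 31 to 34 elsewhere (32 to 34 leaving out each rat), except 8 with at least 10 counts in every rat, where only 9 members could be tested. Between PZH administration and DEN model it was 12, and 1 at the study's thresholds, 1 at an adjusted P under 0.01, 22 with DESeq2, 33 with library totals, 11 with all groups in one fit (9 of the 12 among them) and 1 to 11 leaving out each rat. Between PZH administration and normal control it was 20, and 29 with DESeq2, 27 with all groups in one fit, 24 with library totals, 8 at an adjusted P under 0.01, 5 with at least 10 counts in every rat (9 tested) and 7 to 28 leaving out each rat. The cause of the other shifts was not tested. With library totals, all genes called were 8126 higher and 958 lower in DEN model against normal control (3612 and 2917 with TMM), 556 and 5696 in PZH administration against DEN model (1245 and 1477) and 818 and 91 in PZH administration against normal control (543 and 153). No paired analysis was possible because the groups share no rat numbers. Depth limits the ratios to normal control rats, where the members had 370 to 423 counts in all.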
